A study of Homo sapiens with 13 samples.

Results

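The regions described here are GC-rich stretches of open chromatin that lie away from annotated promoters in H82 and H146 cells. Each was a row of a line's region list on chromosomes 1 to 22, was at least 300 bp wide, had a GC content of at least 65% in the hg38 sequence, had its centre outside every exon, and had its nearest base over 5 kb from the transcription start site (TSS) of any transcript in GENCODE release 44. The H82 list held 1863 such regions of 206928, and the H146 list held 1455 of 174094, which makes 3318 of 381022 rows in all. Members of either list that overlapped were joined into 2502 loci.

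H82 and H146 are established cell lines of small cell lung cancer, a neuroendocrine tumour. Open chromatin was mapped with ATAC-seq, which relies on a transposase, Tn5, to insert adapters into DNA that proteins leave exposed. There were 3 untreated H82 libraries, 3 of H82 given 100 nM FHD-286 for 14 days, 4 untreated H146 libraries and 3 of H146 given the same dose for the same time. FHD-286 inhibits SMARCA4 and SMARCA2, the ATPases of the SWI/SNF remodelling complex. Each line has 1 deposited list, made by the authors from its untreated and treated libraries together, with no score, count or library per region. The effect of FHD-286 could therefore not be measured, each line is 1 sample with no replicate, and no test between lines was run. The errors given are Wilson intervals of 95% for shares, which cover counting error only, and standard errors (SE) from leaving out each chromosome in turn. Sequencing depth was unknown, and the lines differed in list length, so a count is a description of the list and not a measure of openness.

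GC-rich open DNA is best known at CpG islands, the unmethylated stretches that mark many promoters. Away from promoters, GC-rich sequence also occurs in orphan CpG islands, in tandem repeats that are dense near chromosome ends, and inside some transposable elements. SVA elements, a composite family of hominid retrotransposons that is moved by the proteins of LINE-1, carry a GC-rich block of short tandem repeats in their middle. Such elements are commonly kept silent by DNA methylation and by KRAB zinc-finger proteins.

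Sequences of 4 members show what the GC-rich regions were made of. All were read from the hg38 reference, plus strand, 5′ to 3′, from the central 300 bp of the region. The first 3 lie outside the repeat families described below, and capitals mark CpG dinucleotides. PTPRN2, at chr7:158425310-158425609, is an array of short tandem units with 33 CpGs inside a shared 1224 bp H82 region. TTC34, at chr1:2864470-2864769, is from a 386 bp region found in H82 only and holds 11 CpGs with no repeated unit. CACNA1H, at chr16:1129545-1129844, is from a 489 bp region found in H146 only and holds 19 CpGs.
PTPRN2: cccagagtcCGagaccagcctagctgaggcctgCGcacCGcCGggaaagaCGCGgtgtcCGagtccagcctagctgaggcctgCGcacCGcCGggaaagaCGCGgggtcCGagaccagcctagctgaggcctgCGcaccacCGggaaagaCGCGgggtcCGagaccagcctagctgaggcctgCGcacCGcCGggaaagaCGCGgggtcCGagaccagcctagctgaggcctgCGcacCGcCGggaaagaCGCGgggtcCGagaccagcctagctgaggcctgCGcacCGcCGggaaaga
TTC34: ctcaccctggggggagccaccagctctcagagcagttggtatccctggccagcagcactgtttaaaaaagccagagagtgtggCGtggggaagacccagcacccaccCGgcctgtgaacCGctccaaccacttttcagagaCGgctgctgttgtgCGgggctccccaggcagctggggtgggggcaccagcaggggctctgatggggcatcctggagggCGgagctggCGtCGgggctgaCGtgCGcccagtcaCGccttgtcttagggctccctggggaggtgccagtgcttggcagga
CACNA1H: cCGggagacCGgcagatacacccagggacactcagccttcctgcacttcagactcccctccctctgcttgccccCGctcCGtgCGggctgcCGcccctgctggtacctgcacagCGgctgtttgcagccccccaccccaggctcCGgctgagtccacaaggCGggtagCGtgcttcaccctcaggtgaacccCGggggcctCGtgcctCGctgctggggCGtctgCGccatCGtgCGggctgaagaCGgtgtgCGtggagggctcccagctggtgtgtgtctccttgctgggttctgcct
The last is 100 bases from the member with the highest GC content in both lists, at chr2:32916295-32916394 near LTBP1, a gene of latent TGF-beta storage. Its 388 bp in H82 were 93.6% GC, and 360 of the 388 letters were G, with 3 CpGs in all.
LTBP1: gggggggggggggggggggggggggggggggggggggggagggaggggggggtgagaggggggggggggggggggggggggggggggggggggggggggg

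GC-rich distal regions were few in both lines and somewhat more numerous in H82. Of the H82 regions on chromosomes 1 to 22, 7849 (3.90%) were at least 300 bp wide and at least 65% GC, 5146 of these had their centre outside exons, and 1863 (0.926%) were also distal. In H146 the same steps left 6922 (4.07%), 4340 and 1455 (0.856%). The H82 to H146 ratio was 1.28 (SE 0.0649), against 1.16 (SE 0.0471) for distal regions under 65% GC that passed the other rules and 1.09 (SE 0.0313) for GC-rich regions within 5 kb of a TSS. H82 had more members on 19 of the 22 chromosomes, H146 on 2, and chromosome 20 had 48 in each. The members stood a median of 14.1 kb from any TSS in H82 and 14.5 kb in H146, and 126 and 96 of them held some exon bases beside their centre.

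Most members were open in both lines. A member was called shared when any region of the other line overlapped it by at least 1 bp. Of the H82 members, 1260 (67.6%, interval 65.5 to 69.7%) were shared, and 603 were found in H82 only. Of the H146 members, 1294 (88.9%, interval 87.2 to 90.5%) were shared, and 161 were found in H146 only. Among distal regions under 65% GC the shared share was 60.3% in H82 and 75.1% in H146, and over all regions of chromosomes 1 to 22 it was 59.6% and 70.6%. The members exceeded the distal regions of lower GC by 7.30 percentage points in H82 (interval 5.11 to 9.41, jackknife SE 2.01, higher on 19 of 22 chromosomes) and by 13.8 points in H146 (interval 12.1 to 15.4, SE 1.15, higher on 22 of 22). GC-rich regions near a TSS were shared more often still, at 84.5% and 96.2%.

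The overlaps were often partial. When at least 50% of both regions had to overlap, 46.6% of the H82 members and 58.5% of the H146 members were shared, against 49.1% and 60.9% of the lower-GC distal regions, so the order of members and lower-GC regions turned round under that definition. Without the repeat families described below, the figures were 54.0% in H82 and 61.6% in H146. Of the 1260 shared H82 members, 802 were overlapped most by an H146 region that was itself a member. In the other 458 cases the H146 partner missed a rule, and 313 of those partners had under 65% GC and 152 were narrower than 300 bp. In H146, 811 of the 1294 shared members had a member as partner. The members just inside the GC limit behaved like the regions just outside it. Between 65 and 66% GC, 67.3% of 462 H82 and 86.9% of 381 H146 regions were shared, and between 64 and 65%, 67.9% of 623 and 85.3% of 484 were.

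**Figure D1:**
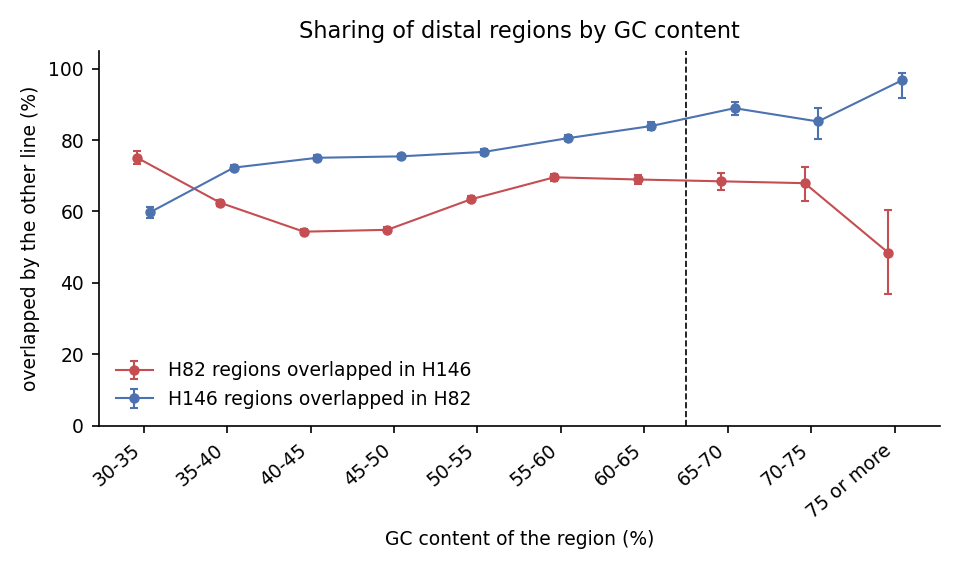
Share (%, vertical axis) of distal regions of at least 300 bp overlapped by the other line, by GC content of the region in steps (horizontal axis, %), with Wilson intervals of 95%, for H82 (red) and H146 (blue); the dashed line is the 65% limit. At 75% GC or more the lines stand farthest apart, with 48.5% of 66 H82 regions and 96.7% of 120 H146 regions shared.

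The lines parted at the highest GC contents. At 75% GC or more, H82 had 66 members, of which 48.5% were shared (interval 36.8 to 60.3%), and H146 had 120, of which 96.7% were shared (interval 91.7 to 98.7%). Of these, 49 of the H82 regions (74.2%) and 101 of the H146 regions (84.2%) belonged to a repeat family whose letters are those of the SVA tandem repeat, as far as general knowledge goes, since no repeat annotation was used. It is called SVA-type here. Members were placed in a family when their central 300 bp shared at least 30 words of 16 bases on either strand, and this grouping was chosen after the data had been seen. The families that stood out were this one, with 414 loci on 22 chromosomes, and a second one with 398 loci on 21 chromosomes. The third largest held 14 loci, and 1580 loci shared with no other. The lines stood far apart for SVA-type members in each GC step. Of these, 42.6% in H82 and 97.6% in H146 were shared between 65 and 70% GC. The shares were 52.9% and 96.7% between 70 and 75%, and 42.9% and 99.0% at 75% or more. At 75% or more, 68.8% of 16 H82 and 84.2% of 19 H146 members outside both families were shared. Between 65 and 70% it was 72.5% and 89.2%.

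SVA-type members were more numerous, wider and more often unshared in H82. H82 had 345 of them (18.5% of its members) and H146 had 172 (11.8%), a ratio of 2.01 (SE 0.266), and H82 had more on 21 of 22 chromosomes. In H82 189 of the 345 were line-only (54.8%), and these were 31.3% of all H82-only members. In H146 3 of the 172 were line-only (1.74%). Their widths had a median of 1295 bp in H82, with quartiles of 811 and 1617, and of 474 bp in H146, with quartiles of 366 and 732. In 213 pairs of overlapping regions that each met no other region, the H82 region was wider in 198 and the H146 region in 6, with a median H82 to H146 width ratio of 2.96-fold (1.56 on the log2 scale, SE 0.0605). In 165 of those pairs H82 was at least 2-fold wider. The median GC content of these members was 68.7% in H82 and 76.9% in H146. SVA-type members were seldom near chromosome ends, with 2.61% of the H82 and 4.65% of the H146 regions within 5 Mb of one, and 47.8% and 45.9% lay inside a protein-coding gene.

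A like contrast was seen at all sites in the genome of a word taken from the family. The commonest 16-base word of the family occurred 7967 times on chromosomes 1 to 22, at 2393 sites when occurrences within 1 kb were joined. H82 regions of any width or GC content covered 1447 of the sites (60.5%, SE 2.86) and H146 regions covered 438 (18.3%, SE 1.35). Both lists covered 417 and neither covered 925, so 417 of the 438 sites covered in H146 were also covered in H82. H82 covered the larger share on 22 of 22 chromosomes. The share rose with the number of copies of the word in both lines up to 9 copies. Sites with 1 copy were covered at 31.6% in H82 and 5.19% in H146, sites with 5 to 9 copies at 88.3% and 38.0%. The word had been chosen as the commonest over the 414 loci of the family, in which H82 had 345 members and H146 had 172. It was found at 348 of those loci. The loci of the members are among the sites, so these shares are not independent of the lists. The word was also in the central 300 bp of 291 of 84058 distal H82 regions under 65% GC and of 7 of 72438 such H146 regions. Reads from near-identical copies cannot be placed with certainty, and their part in these values was not tested.

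**Figure D2:**
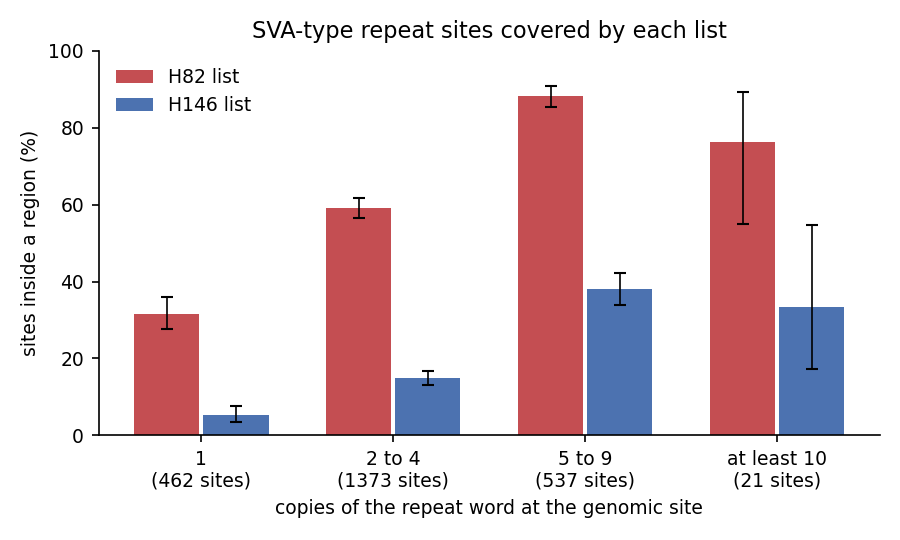
Share (%, vertical axis) of genomic sites of the SVA-type repeat word that lie in an H82 (red) or H146 (blue) region, by the copies of the word at the site (horizontal axis), with Wilson intervals of 95%. H82 covers the larger share in each class, from 31.6% against 5.19% at 1 copy to 88.3% against 38.0% at 5 to 9 copies.

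**Figure D3:**
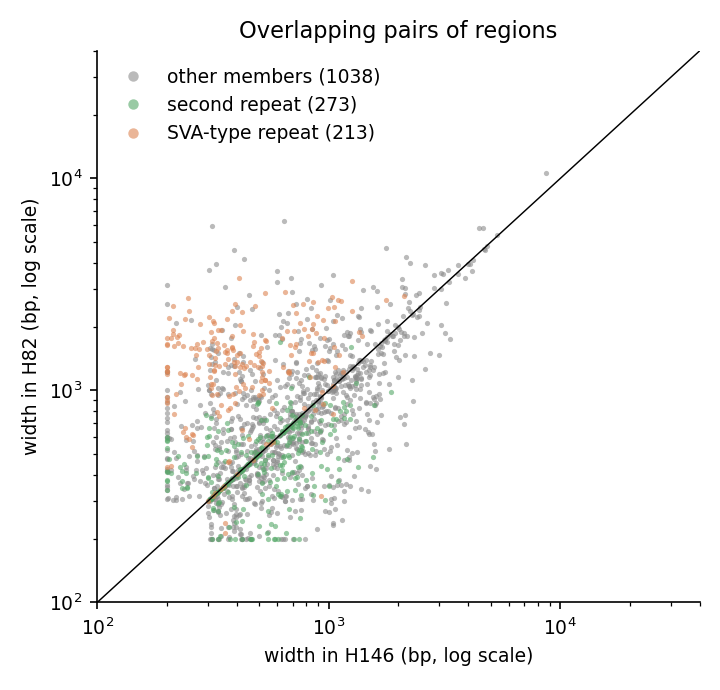
Width in H82 (bp, vertical log axis) against width in H146 (bp, horizontal log axis) of 1524 overlapping pairs in which either region is a member and neither meets another region; the line marks equal widths. Of the SVA-type pairs (orange) 198 of 213 lie above the line, whereas the second repeat (green, 273 pairs) and the other members (grey, 1038 pairs) lie on both sides.

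The second family did not show that contrast. It had 297 members in H82 (15.9%) and 227 in H146 (15.6%), a ratio of 1.31 (SE 0.111). Shared were 72.7% in H82 and 81.5% in H146, and 81 and 42 members were line-only. The median width was 453 bp and 485 bp, and of 273 pairs H82 was wider in 85 and H146 in 140. For comparison, of 55295 such pairs at distal regions under 65% GC, H82 was wider in 11764 and H146 in 35817. Its commonest 16-base word was found at 161 of its 398 loci, so it describes only a part of the family. That word stood at 973 sites on chromosomes 1 to 22, of which H82 covered 44.1% (SE 3.83) and H146 41.0% (SE 2.93). These members lay farther from genes than the other members. Of them 68.0% in H82 and 65.2% in H146 were outside every annotated gene. Their median distance to a protein-coding TSS was 99.4 and 123 kb. It was 42.86 and 47.59 kb for SVA-type members, and 39.75 and 40.04 kb for members outside both families. Distal regions under 65% GC had medians of 83.9 and 89.1 kb, and 42.5% and 43.1% of them were outside every gene. By median distance, the other members thus stood nearer to a protein-coding TSS than lower-GC distal regions did. With a limit of 60 shared words the family kept 180 and 140 members, and the SVA-type family kept 333 and 165.

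The other 1221 H82 and 1056 H146 members were close in median width and somewhat more numerous in H82. Their ratio was 1.16 (SE 0.0547), the same as that of distal regions under 65% GC. Shared were 72.7% in H82 and 89.0% in H146, which left 333 and 116 line-only members. Median widths were 601 and 604.5 bp, and in 1038 pairs H82 was wider in 459 and H146 in 474. In these pairs H82 was at least 2-fold wider in 143 and H146 in 88. The pairs at distal regions under 65% GC were less even, with H82 wider in 21.3% of them, against 44.2% here. Shared members were wider than line-only members in both lines. An overlap of 1 bp was enough to be called shared, so the definition itself favours wide regions. The medians were 709 against 445 bp in H82 and 658 against 391 bp in H146, and for distal regions under 65% GC they were 628 against 493 bp and 665 against 406 bp. Over all members, the median width was 620 bp in H82 (interval 594 to 647) and 548 bp in H146 (interval 524 to 575), whereas outside the repeat families the medians were level.

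**Figure D4:**
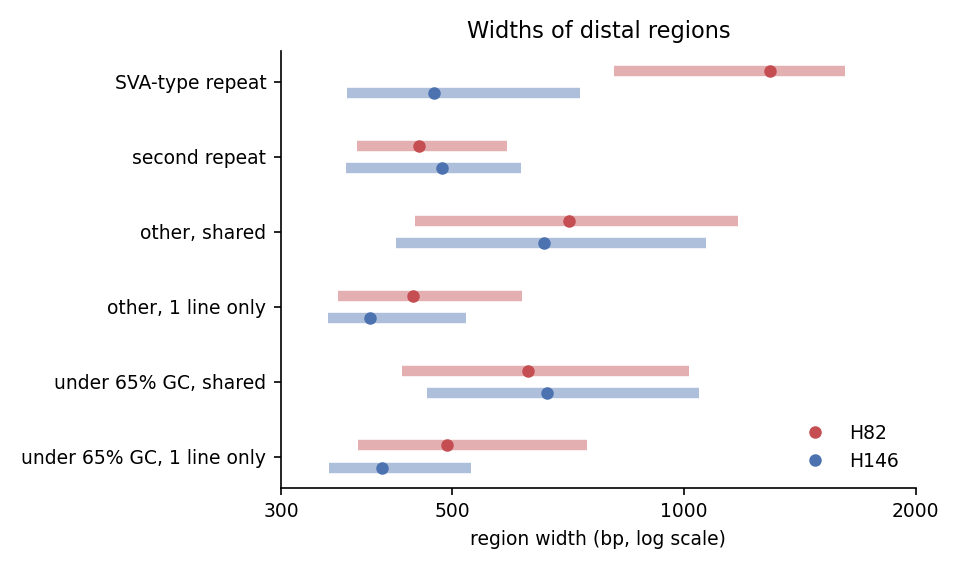
Median (points) and quartiles (bars) of region width (bp, horizontal log axis) in H82 (red) and H146 (blue) for classes of distal regions. The SVA-type regions differ most, at 1295 bp in H82 and 474 bp in H146, and line-only regions are narrower than shared ones in both lines.

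Members outside the families clustered at chromosome ends. Within 5 Mb of an end, which is 7.65% of the length of these chromosomes, lay 680 of the 1221 in H82 (55.7%, interval 52.9 to 58.5%) and 607 of the 1056 in H146 (57.5%, interval 54.5 to 60.4%). Of distal regions under 65% GC 7.98% and 8.70% lay there. Of those between 64 and 65% GC, however, 43.7% and 48.8% did, and of GC-rich regions near a TSS 36.9% and 36.6%. The clustering was thus not particular to these members. The shared share near the ends and elsewhere had overlapping intervals, at 74.7% and 70.2% in H82 and 89.8% and 88.0% in H146. Many of these members were internally repetitive, meaning that at least 20% of the 16-base words in their central 300 bp occurred more than once. This held for 21.0% in H82 and 20.9% in H146, against 1.20% and 1.14% of distal regions under 65% GC. The share was 28.5% near the ends in both lines and 11.5% and 10.7% elsewhere. Repetitive members were shared at 76.2% in H82 and 92.8% in H146, the others at 71.8% and 88.0%.

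CpGs were depleted in most members. The observed to expected CpG ratio had a median of 0.482 in H82 and 0.463 in H146, between 0.192 and 0.187 in distal regions of lower GC and 0.659 and 0.688 in GC-rich regions near a TSS. A ratio of at least 0.6, as in CpG islands, was found in 361 H82 members (19.4%) and 316 H146 members (21.7%), of which 75.6% and 88.6% were shared. Near a TSS 57.7% and 62.0% of the GC-rich regions had it. SVA-type members were uniform, with medians of 0.518 and 0.526. Outside the families, 65.9% of 123 H82 members with a ratio under 0.2 were shared (interval 57.1 to 73.6%). Between 0.6 and 0.8 it was 81.2% of 208 members (75.4 to 86.0%). At 0.8 or more it was 76.0% of 96 members (66.6 to 83.5%), an interval that overlaps both. The H146 shares stayed between 84.8 and 92.6% with overlapping intervals.

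**Figure D5:**
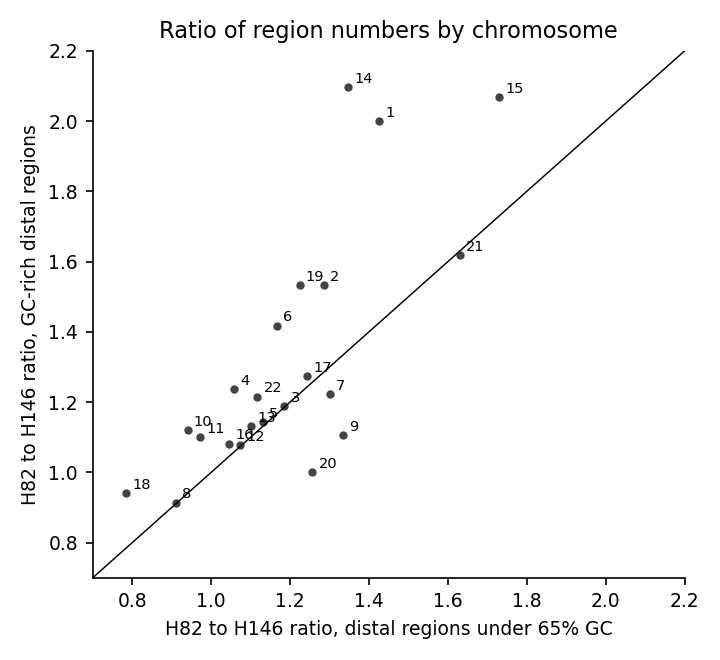
H82 to H146 ratio of the number of GC-rich distal regions (vertical axis) against the same ratio for distal regions under 65% GC (horizontal axis), 1 point per chromosome, labelled by its number; the line marks equal ratios. Chromosomes 1, 14 and 15 have ratios of 2.00, 2.10 and 2.07 and chromosomes 8 and 18 are below 1.

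The excess of H82 members was uneven over chromosomes and went with that of the other distal regions. The ratio was 2.00 on chromosome 1 (172 against 86), 2.10 on chromosome 14 (65 against 31) and 2.07 on chromosome 15 (62 against 30), where the ratio for lower-GC distal regions was 1.43, 1.35 and 1.73. It was 0.942 on chromosome 18, where all 49 H82 members were shared and the lower-GC ratio was 0.785. Over the 22 chromosomes Pearson's r between the ratios on a log2 scale was 0.770 and Spearman's rho was 0.741. Both ratios come from the same lists, and copy number was not measured. Chromosome 1 held 100 of the 603 H82-only members and 4 of the 161 H146-only members. Its H82 members were shared at 41.9%, and without chromosome 1 the shared share in H82 was 70.3%.

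The genes nearest to members, taken by protein-coding TSS, were partly the same. H82 members had 1341 nearest genes and H146 members 1010, with 670 in common (66.3% of the H146 genes and 49.96% of the H82 genes). The H82-only members had 519 nearest genes, of which 470 had 1 such member, and 19 of the 519 were also nearest to an H146-only member. Line-only members were thus spread thinly, and the genes named next are the few with several.

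The genes with the most shared members lay near chromosome ends, and each had a small part of these members. The first in H82, PTPRN2, was the nearest gene of 13 of the 1260 shared H82 members. PTPRN2, which encodes a transmembrane protein of neuroendocrine secretory granules, hosted more members than any other gene in both lines, with 27 in H82 and 17 in H146 (gene body at chr7:157539056-158587823). Of these, 7 were found in H82 only and 0 in H146 only, and none was in a repeat family. The H82 regions in it were 309 to 4124 bp wide and 65.1 to 78.2% GC. As nearest gene, PTPRN2 had 17 H82 and 10 H146 members. DNAJB6, the neighbouring gene of an HSP40 co-chaperone, had 14 and 11, of which 5 and 1 were line-only. TMEM121 had 11 and 7 and KIF26A, an atypical kinesin gene, had 9 and 4, and all of these were shared. The homeobox gene NKX1-1 had 9 and 6, with 1 found in H82 only. BAHCC1 had 5 and 8, all shared. EXD3 hosted 6 in each line, 2 of them found in H82 only. Lower-GC distal regions were also many at most of these genes. In H82 and H146 they numbered 50 and 56 at PTPRN2, 57 and 44 at DNAJB6, and 18 and 24 at TMEM121. They numbered 33 and 30 at KIF26A, 12 and 17 at NKX1-1, and 3 and 5 at BAHCC1. Of the lower-GC regions, 0 in H82 and 3 in H146 were line-only at TMEM121, and 1 and 0 at KIF26A.

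Besides those at DNAJB6 and PTPRN2 on chromosome 7, given above, H82-only members stood in groups at genes on chromosomes 1, 16 and 19. TTC34 had 8 H82 members, of which 7 were H82-only, and 1 H146 member. MEGF6, which encodes a protein with EGF-like repeats, was the nearest gene of 6 H82 members, all H82-only, and of 0 H146 members, while its gene body hosted 10 in H82, of which 8 were H82-only, and 3 in H146. KDM4B, a histone H3 lysine 9 demethylase gene, had 5, all H82-only, and 0 in H146. ZFPM1, which encodes the GATA cofactor FOG1, had 7 in H82, of which 5 were H82-only, and 3 in H146, of which 1 was H146-only. Lower-GC distal regions at the genes on chromosomes 1, 16 and 19 leaned the same way. They numbered 12 against 3 at TTC34, 16 against 3 at MEGF6, 23 against 5 at KDM4B and 5 against 3 at ZFPM1, for H82 against H146.

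H146-only members formed smaller groups. CACNA1H, which encodes a T-type calcium channel, had 12 H146 members, of which 4 were H146-only, and 7 H82 members, all shared. Its H146-only members were 407 to 651 bp wide and 21.8 to 34.4 kb from the TSS. The homeobox gene UNCX had 11 H146 and 9 H82 members, of which 3 and 4 were line-only. BRSK2, a neuronal kinase gene, and PWWP2B each had 6 H146 members, of which 2 were H146-only, and 4 H82 members. CYP11B2, the aldosterone synthase gene, had 2 H146-only members and 0 in H82. Lower-GC distal regions numbered 3 in each line at CACNA1H. For H146 against H82 they numbered 14 and 13 at UNCX, 5 and 1 at BRSK2, 7 and 4 at PWWP2B, and 2 and 1 at CYP11B2.

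A difference in member number did not always mean a difference in open sites. FBRSL1 had 11 H146 members and 2 H82 members, yet all 11 were overlapped by H82. They fell in 7 H82 regions of 2363 to 22864 bp, of which 1 was a member, 5 had under 65% GC and 1 passed the GC limit but lay within 5 kb of a TSS. The widest of these, at chr12:132395218-132418081, was 63.3% GC and took in 2 H146 members.

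The widest members were shared. In H82 the widest was 13683 bp inside EXD3 (chr9:137309526-137323208), which met 5 H146 regions. It was followed by one of 10589 bp on chromosome 2, whose nearest gene PLGLB2 was 331 kb away, and one of 9311 bp near FGFR3, a growth factor receptor gene. In H146 they were one of 18404 bp on chromosome 2 that was 2828 kb from its nearest gene RPIA, and those near FGFR3 (9593 bp) and PLGLB2 (8674 bp). The members on chromosome 2 near RPIA and PLGLB2 had few CpGs for their GC content, with observed to expected ratios of 0.0967 and, in H82, 0.0822. Wide H82-only members were near WDR5 (3507 bp, SVA-type) and in MEGF6 (3292 bp). The widest H146-only members were near POTEB (1532 bp), in PCGF3 (1434 bp) and near UNCX (1405 bp).

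The most GC-rich members were mainly of the SVA type. After the G-rich region near LTBP1, those shared in H82 were near KLF4 (81.9% GC, 875 bp in H82 and 200 bp in H146) and ACSL3 (81.6%, 603 and 241 bp), and in H146 near HLA-DRB1 (83.0%) and in PJA2 (82.6%, 310 bp in H146 and 1892 bp in H82). The H82-only members highest in GC were in UBTD1 (384 bp), near GPR45 (81.7%) and in PIAS1 (81.2%, nearest TSS that of CALML4). All of these were of the SVA type. Of the H146-only members highest in GC, the one nearest to FZD4 was SVA-type (81.2%). Those near SHISAL1 (79.6%, 1067 bp, 159 CpGs) and near POMC (79.0%, 348 bp, 46 CpGs), the gene of a hormone precursor, were not, and their CpG ratios were 0.987 and 0.847.

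Of 15 genes of neuroendocrine identity, MYT1 alone, which encodes a neural zinc-finger factor, hosted members or was nearest to one, with 1 in H82 (0.0537% of members) and 4 in H146 (0.275%), all shared. The H82 region was 2074 bp wide (chr20:64234474-64236547) and lay within an H146 member of 2665 bp, and the other H146 members were 2431, 368 and 1265 bp wide. None of 9 low-neuroendocrine genes, 5 ERBB receptor and ligand genes or the 2 SWI/SNF ATPase genes was nearest to a member or hosted one in either list. Lower-GC distal regions at the neuroendocrine genes were 0.327% of all such regions in H82 and 0.301% in H146. At the other lists they were 0.0964% and 0.0994% for the low-neuroendocrine genes, 0.123% and 0.130% for the ERBB genes, and 0.0274% and 0.0262% for the ATPase genes. Nothing is read from these small counts. Of 17 imprinted genes, KCNQ1, a potassium channel gene, hosted 6 members in H82 and 8 in H146. All the H82 members in it were shared, and 2 in H146 were line-only, of 301 and 451 bp. CDKN1C, an imprinted inhibitor of cyclin-dependent kinases, was the nearest gene of those at the 3′ side of KCNQ1. Members at the imprinted genes were 0.322% of all members in H82 and 0.550% in H146. Lower-GC distal regions there were 0.114% and 0.102% of all such regions. These counts are small too. GSE1 also ranked among the top host genes in H146, with 8 members there and 6 in H82.

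Genes of developmental transcription factor families had members in both lines. Of 232 such genes, 31 had 54 members in H82 (2.90% of members) and 33 had 58 in H146 (3.99%), against 2.42% of lower-GC distal regions in each line. GATA5 had 2 members in H82, of which 1 was shared, and 6 in H146, all shared. SOX8 had 3 and 6, of which 0 and 2 were line-only. SOX1 had 3 in each line, all shared, from 338 to 1726 bp wide. Line-only at these genes were 11 of the 54 members in H82 and 8 of the 58 in H146. Of all members, 32.4% and 11.1% were line-only. In the repeat families lay 3 of the 54 and 7 of the 58. Some members were far from the gene named, such as 768 kb at TBX3 in H146. Those at FOXK1 lay inside SDK1, up to 502 kb from the FOXK1 TSS.

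Words of transcription factor motifs in the central 300 bp were searched on both strands. Each word read backwards was searched for comparison. It has the same bases, but it can differ in CpGs, which were depleted in most members. GGGCGG, the box of SP1 and KLF factors, was found in 54.3% of H82 and 54.0% of H146 members, against 8.54% and 7.09% of lower-GC distal regions, but GGCGGG was found in 58.9% and 57.0% of the members. CCACCC, a KLF word, was in 59.6% and 60.5%, and CCCACC in 65.7% and 61.8%. Both words can share letters with GGGCGG or its reverse in a run of G or C. GCCNNNGGC, of AP-2 factors, was in 653 of the 1863 H82 members and 36.2% of the H146 members, and its reverse CGGNNNCCG in 15.6% and 16.6%. In lower-GC distal regions the word was in 9.05% and 9.25% and its reverse in 1.08% and 1.05%. The OTX2 word TAATCC was rare in members, at 1.18% and 1.03%, as was CCTAAT at 1.07% and 1.24%, whereas 23.5% and 11.8% of lower-GC distal regions held TAATCC. The CTCF consensus was in 1.23% of H82 and 1.58% of H146 members, and in 1.76% and 2.41% of lower-GC distal regions. In GC-rich regions near a TSS, GGGCGG was in 66.9% and 69.2% and GCCNNNGGC in 45.3% and 46.5%. There TAATCC was in 1.60% in each line, and CCACCC in 49.1% and 47.9%. The high shares of GGGCGG and GCCNNNGGC and the low share of TAATCC were thus not particular to the members.

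E-box words, read by basic helix-loop-helix factors such as NEUROD1, were compared between H82-only and H146-only members. Outside the repeat families the intervals of the lines overlapped for each of the 3 words described here. CAGATG was in 20.1% of the 333 H82-only members outside the families (interval 16.2 to 24.8%), in 14.7% of the 116 H146-only ones (9.36 to 22.2%), and in 14.6% and 14.0% of the shared ones. In lower-GC distal regions it was in 37.1% of those found in H82 only and 23.9% of those found in H146 only. CAGGTG was in 33.3% of the H82-only (28.5 to 38.6%) and 42.2% of the H146-only members outside the families (33.6 to 51.3%). With the families included the intervals did not overlap, at 157 of 603 H82-only members (22.7 to 29.7%) and 68 of 161 H146-only members (34.87 to 49.96%). Among line-only distal regions of lower GC CAGGTG was in 7336 of 33342 in H82 and in 35.9% in H146. CAGCTG was in 27.0% of the H82-only and 31.0% of the H146-only members outside the families (22.5 to 32.0% and 23.3 to 39.9%). In the second repeat family CAGCTG stood in 72.4% of H82 and 68.3% of H146 members, and in the SVA-type family GGGCGG stood in 98.3% and 98.8%. A word is a description of the sequence and not a bound site.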

How the data were processed

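ATAC-seq was performed by the authors on 13 libraries, 6 of H82 and 7 of H146. Per the methods and the submitters' processing notes, reads were trimmed with Trim Galore 0.4.4 and aligned to hg38 with Bowtie2 2.3.4 at its default settings, duplicates were removed with Picard, regions were called per library with MACS2, blacklisted regions were dropped and regions within 500 bp were merged. The deposited values are other quantities than counts, namely region starts and ends in bp, pooled over a line's libraries, so depth was unknown. A region is listed when called in any library, so a list grows with libraries and depth, and width reflects merging. How reads with several equal alignments were treated is not given in the sources used here. For H146, the methods place 3 controls in another batch than the 1 control and 3 treated libraries, which a pooled list cannot separate.

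GC content, CpG ratio (CpGs times width over the product of C and G counts) and motif words were computed with Python 3.11.15, numpy 2.4.6 and pandas 2.3.3 from hg38, and genes came from GENCODE release 44 on the same build. Coordinates are 1-based. Host genes were protein-coding genes holding the centre. Named were the 5 nearest genes with the most members per class, the 3 widest and 3 most GC-rich members per line and class, the 3 leading host genes per line, and genes of 6 lists. The functions were tested on simulated data. The members and gene lists were chosen with earlier results of these data known, and the repeat families were found in them. 1 named member and some sequences are not reported here.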

Additional observations from a re-analysis of the deposited data

Results flagged for a closer look

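Chromosome X was outside the regions reported above, and its rows that met the same width, GC, exon and TSS rules exceeded the 3 that a count of 0 would allow. There were 37 such regions in H82, of which 22 (59.5%) were shared, with a median width of 1087 bp. There were 25 in H146, of which 24 (96.0%) were shared, with a median width of 1109 bp.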

How the results depend on the processing

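Of 82 repeats of the main values under other settings, 49 stayed within the interval of the main value or within 1.5 times a main count, 31 moved and 2 reversed. The reversals were the differences from lower-GC distal regions when at least 50% of both regions had to overlap, at -2.52 points in H82 and -2.38 in H146, with shares of 46.6% and 58.5%. The ratio of H82 to H146 regions stayed between 1.16 and 1.40 under all its settings. With GC of at least 60%, there were 6607 H82 and 5112 H146 members with median widths of 667 and 594 bp, the H146 share was 85.3% and its difference 10.7 points. With GC of at least 70%, there were 437 and 363 with medians of 492 and 466 bp, the H82 share was 64.99% and its difference 4.52 points. With widths of at least 500 bp, there were 1155 and 828 with medians of 978 and 807.5 bp and shares of 74.5% and 94.4%, and the H146 difference was 6.60 points. Without centres within 5 Mb of a chromosome end, there were 1160 and 829, the H82 share was 63.4% with a difference of 3.90 points, and the H146 median was 523 bp. 3 alternatives were chosen after seeing the data. Without the repeat families, H82 had 1221 members with a share of 72.7% and a difference of 12.4 points, and the H146 median was 604.5 bp. Without chromosome 1, the H82 share was 70.3%. With 60 shared words to join regions, the second family had 180 and 140 members, and the ratios of both families changed by less than 10%. Motif shares left the interval of the word when it was read backwards in 18 of 26 cases. The cause of these changes was not tested, beyond the fewer or more regions that each limit admits. No paired analysis was possible because each line has 1 pooled list with no value per library, and leaving out a library was not possible for the same reason. Depth was unknown, so absence from a list does not show that a region was closed.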
